A study of Mus musculus with 12 samples.

Results

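Hepcidin and its partners in iron handling were followed in mouse liver through 9 genes: the hepcidin genes Hamp and Hamp2, the transferrin receptor genes Tfrc and Tfr2, the transferrin gene Trf, the ferroportin gene Slc40a1, the ligand gene Bmp6, and Id1 and Smad7, which respond to that ligand. The genes were chosen by name, with earlier results of these data known, and matched to array probe sets that carry 1 gene symbol. Counts of them, and of the gene lists below, are therefore set beside those of all probe sets only as a description. All 9 were found among 19935 such genes, each with 1 probe set, and all 9 were bright enough to test. Whole livers came from ovariectomised mice labelled C57BL/6, 3 months old, that were wild type, ERKO (described in the labels as lacking oestrogen receptor alpha) or MOER (described as carrying that receptor at the membrane only). After 1 week of recovery each mouse was injected for 3 days with PPT, an agonist of oestrogen receptor alpha, at 100 µg a day, or with 0.1 mL of oil. An array held RNA pooled from 3 animals, and each of the 6 groups had 2 arrays. All groups, controls included, had thus lost their ovaries, and the labels do not name what drives the receptor in MOER mice. The protocol says the study was run a second time but not whether new animals were used, so p-values measure only the spread between these arrays, which may be technical.

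Hepcidin is a peptide hormone that hepatocytes secrete. It binds ferroportin, the only known cellular iron exporter, and causes it to be degraded, so that less iron enters plasma from macrophages, gut and liver. Transcription of Hamp is driven by BMP6, made largely by the sinusoidal endothelium, through BMP receptors and SMAD proteins, and by interleukin 6 through STAT3. Mice carry a second gene, Hamp2, expressed in liver and pancreas, whose product is not known to lower plasma iron. Transferrin carries iron in plasma, TFR1 (Tfrc) takes it into cells, and TFR2 helps hepatocytes sense it. Tfrc mRNA is stabilised in cells that are short of iron.

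Array medians lay between 77.5 and 85.26 intensity units, and hepatocyte markers were bright in every group, with Alb at group means of 17717 to 21014. The summed intensity of 8 hepatocyte markers was 86368 to 87822 under oil and 72177 to 76852 with PPT in wild type. It was 76426 to 97212 and 83862 to 83878 in ERKO, and 91221 to 94632 and 91376 to 95181 in MOER. In wild type Cps1 averaged 7850 and 1961, and Tat 7578 and 10357 (oil, then PPT). At an adjusted p under 0.05 in limma, 1 of the 8 rose and 3 fell there, against 14.8% and 16.2% of all probe sets. In ERKO 0 rose and 3 fell, against 9.48% and 8.46%. Pearson's r between both arrays of 1 group, taken over probe sets, was 0.994 to 0.996 in 5 groups. The ERKO oil pair stood apart, with an r of 0.981 and 162 probe sets more than 2-fold apart. Esr1, the receptor's gene, was lower than in wild type under oil by a log2 difference of -1.43 ± 0.093 in ERKO and -1.38 ± 0.093 in MOER, so its probe set does not tell the altered genotypes apart. Both MOER oil arrays held pancreatic transcripts. The summed intensity of 9 acinar cell markers was 36261 and 46383 there and 284 to 491 on the 10 other arrays. The part of pancreatic RNA in any result on the MOER oil arrays was not tested. In RNA from whole tissue, fewer cells of a type and less RNA per cell cannot be told apart.

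The promoters of the 2 hepcidin genes are shown first, because the genes responded differently to PPT although they lie close together on chromosome 7 and share most of their upstream sequence. Promoter windows with a start site, on assembly GRCm38.p6, were at hand for 5 of the 9 genes (Hamp, Hamp2, Tfrc, Tfr2 and Bmp6). Printed below are the 250 bases before each start, at chr7:30944030-30944279 for Hamp and chr7:30924182-30924431 for Hamp2, both on the minus strand and written 5′ to 3′. Capitals mark GGCGCC, the core of the BMP-responsive element, and TTCNNNGAA, the general form of a STAT site.
Hamp: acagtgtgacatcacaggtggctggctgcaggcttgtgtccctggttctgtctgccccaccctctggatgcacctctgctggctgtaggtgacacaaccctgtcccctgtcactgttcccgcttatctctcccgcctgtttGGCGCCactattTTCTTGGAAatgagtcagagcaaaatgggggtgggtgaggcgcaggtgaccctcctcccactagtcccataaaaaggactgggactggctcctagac
Hamp2: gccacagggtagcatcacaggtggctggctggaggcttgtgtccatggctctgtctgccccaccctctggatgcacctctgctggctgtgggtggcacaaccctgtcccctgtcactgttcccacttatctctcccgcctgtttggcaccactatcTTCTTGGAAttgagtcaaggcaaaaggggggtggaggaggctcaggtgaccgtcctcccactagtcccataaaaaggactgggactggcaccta

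In a global alignment of these windows 227 of 247 aligned bases were identical, 91.9%. The Hamp window held GGCGCC starting 109 bases before the start site, and the Hamp2 window did not. Within that hexamer the alignment showed 1 substitution, G145A, counted from 1 at the 5′ end of the Hamp window with the Hamp base first. Both windows held TTCNNNGAA, starting 97 bases before the start in Hamp and 94 in Hamp2, with 0 substitutions inside it. Each also held 1 match to GGTCA, the half-site of an oestrogen response element, and 1 to CAGAC, a SMAD box, all 4 on the opposite strand. Over the 32851 promoter windows of this length, searched on both strands, GGCGCC was present in 9.59%, TTCNNNGAA in 7.02%, GGTCA in 35.2% and CAGAC in 42.2%. The capitalised motifs do not overlap one another. Of the other genes with a window, Tfrc held GGCGCC before 1 of its 2 annotated starts, 89 bases upstream, and neither Tfr2 nor Bmp6 held it. A match describes letters only, and binding was not measured.

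PPT changed 8 of the 9 genes in wild type liver and 4 each in ERKO and MOER. Hamp2 and Tfrc fell in both altered genotypes, and Tfr2 fell in ERKO and rose in MOER. A gene was called at a Benjamini-Hochberg adjusted p under 0.05 in limma over 19119 probe sets. In wild type, 3 of the 9 genes rose and 5 fell, against 14.8% and 16.2% of all probe sets. In ERKO, 0 rose and 4 fell (9.48% and 8.46% of all probe sets), and in MOER 2 rose and 2 fell (2.35% and 2.31%). The median log2 change of the 9 genes was -0.36 in wild type, -0.16 in ERKO and 0.17 in MOER, while that of all 13987 tested genes was 0.00 in each. In ERKO the 1 gene with a positive difference was Bmp6, at 0.06. In a Cyber-T-style test at the threshold of the labels' protocol, 4 of the 9 genes passed in wild type (5.91% of all probe sets), 2 in ERKO (1.52%) and 2 in MOER (0.889%).

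**Figure D1:**
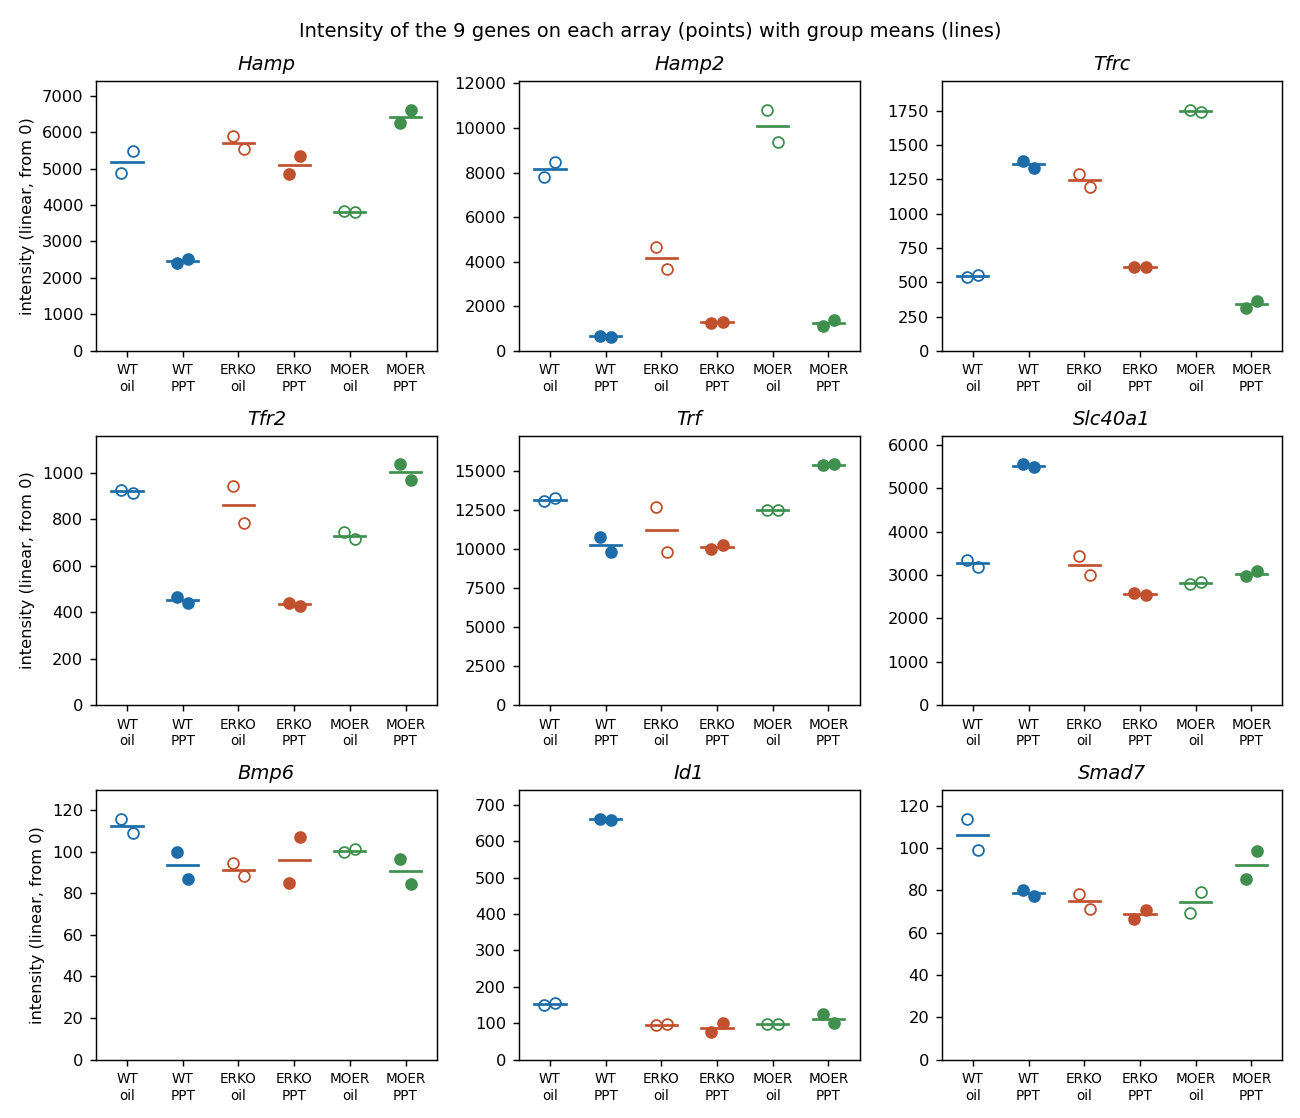
Intensity (linear axis from 0) of each gene on the 12 arrays, open circles for oil and filled for PPT, lines for the mean of 2 arrays; scales differ between panels and levels of different probe sets are not comparable. Hamp2 is lower with PPT in all 3 genotypes, Id1 is high on the wild type PPT arrays alone, and Tfrc is higher with PPT in wild type and lower in ERKO and MOER.

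Hamp, the gene of the active hormone, moved in opposite directions in wild type and MOER. In wild type its intensity was 4874 and 5493 on the oil arrays and 2412 and 2530 after PPT. That is a log2 change of -1.06 ± 0.096 (± SE of the fit on the log2(intensity + 16) scale, limma adjusted p = 1.12e-05). In MOER it rose from 3830 and 3802 to 6244 and 6610, a log2 change of 0.75 ± 0.096 (adjusted p = 8.94e-04). These MOER oil values come from the arrays with pancreatic transcripts, whose part was not tested. The MOER rise did not pass the Cyber-T-style test, which asks for a 2-fold change. In ERKO Hamp read 5896 and 5536 under oil and 4856 and 5352 with PPT. The groups did not overlap in any of the 3 genotypes, but the ERKO difference of -0.16 ± 0.096 did not pass the test (adjusted p = 0.274, 95% interval -0.38 to 0.05). With quantile normalization that ERKO fall was called. By mean intensity the groups ran MOER PPT, ERKO oil, wild type oil, ERKO PPT, MOER oil and wild type PPT, and wild type oil overlapped with ERKO PPT.

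Hamp2 fell in all 3 genotypes, including ERKO. In wild type it went from 7789 and 8487 to 643 and 641, a 12.4-fold drop (log2 change -3.63 ± 0.135, adjusted p = 1.69e-08). In MOER it went from 10810 and 9364 to 1116 and 1366, 8.06-fold (-3.01 ± 0.135, adjusted p = 2.86e-07). In ERKO it went from 4641 and 3674 to 1253 and 1301, 3.21-fold (-1.68 ± 0.135, adjusted p = 1.91e-05). The PPT arrays lay below every oil array of any genotype. The highest values were on the MOER oil arrays, which also carried the pancreatic transcripts. The falls in wild type and ERKO were measured on arrays whose summed acinar markers were 284 to 491. The ERKO oil arrays differed more than other pairs, and the ERKO change was -1.51 without the first of them and -1.85 without the second. The probe sequences were not used here, so how far either hepcidin probe set reads the other gene is not known and was not tested. In MOER, with pancreatic transcripts on the oil arrays, the readings of Hamp and Hamp2 moved in opposite directions.

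The upstream ligand and the downstream BMP targets did not move as a group. Bmp6, the ligand gene, had an intensity of 116 and 109 under oil and 99.7 and 87.0 with PPT in wild type, 94.6 and 88.0 against 85.0 and 107.1 in ERKO, and 99.8 and 101 against 96.6 and 84.5 in MOER. The groups overlapped in ERKO and not in wild type or MOER. None of the 3 differences passed the test, at -0.23 (adjusted p = 0.157, 95% interval -0.49 to 0.02), 0.06 (0.785, -0.20 to 0.31) and -0.13 (0.711, -0.38 to 0.12) on the log2 scale.

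Id1, an inhibitor of basic helix-loop-helix factors and a direct target of BMP signalling, rose 4-fold with PPT in wild type, from 150 and 156 to 661 and 658 (log2 change 2.00 ± 0.125, adjusted p = 7.54e-07). In ERKO it read 94.9 and 98.4 under oil and 75.3 and 100.6 with PPT, and in MOER 97.3 and 99.2 against 124.9 and 101.1. Neither difference passed the test (-0.13, adjusted p = 0.533, and 0.17, adjusted p = 0.634). Smad7, an inhibitory SMAD that limits Hamp transcription, went the other way in wild type, from 114 and 98.9 to 80.1 and 77.2 (-0.37 ± 0.105, adjusted p = 0.0213). That call was lost without wild type oil replicate 1 or either wild type PPT array. In ERKO Smad7 read 78.1 and 71.4 against 66.5 and 71.0, and in MOER 69.5 and 79.4 against 85.3 and 98.7, with changes of -0.10 (adjusted p = 0.571) and 0.26 (adjusted p = 0.273) that did not pass.

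Of 25 other genes of BMP and SMAD signalling, 2 rose and 11 fell in wild type, with a list median of -0.28. Of all probe sets 14.8% rose and 16.2% fell there. Tmprss6, a protease that restrains hepcidin by cleaving haemojuvelin, fell from 1957 ± 1.92 to 753 ± 3.93 (mean intensity, SD of 2 arrays; log2 change -1.36 ± 0.099). Bmp2, an endothelial ligand, fell from 348 to 148 (-1.15 ± 0.131), and Inhbb, which encodes an activin subunit, was called higher with means of 45.0 and 131 (1.29 ± 0.196). Its oil readings in wild type were 55.2 and 34.8, and 1 of these 2 arrays was above its 40th percentile, so that change is poorly measured. In ERKO 1 of the 25 rose, Bmp2 from 258 to 374 (0.52 ± 0.131, adjusted p = 0.0222), and 1 fell, Tmprss6 from 1341 to 1026 (-0.37 ± 0.099, adjusted p = 0.0264). In MOER the 1 gene called was Atoh8, a BMP target, which rose from 70.8 to 109 (0.53 ± 0.100, adjusted p = 0.0116). The list medians were 0.01 in ERKO and 0.05 in MOER. Of all probe sets 9.48% rose and 8.46% fell in ERKO, and 2.35% and 2.31% in MOER. Markers of sinusoidal endothelium, the main source of BMP ligands, moved too in wild type. Of 12 such markers 1 rose and 6 fell, and their summed intensity was 8826 to 9108 under oil and 5105 to 5206 with PPT, against 7500 to 9053 in the 4 other groups. Clec4g made up most of that wild type difference (means of 4127 under oil and 1585 with PPT). Lyve1 (238 and 422) and Pecam1 (258 and 308) averaged higher with PPT. None of the 12 was near background on all arrays. The part of endothelial cells in the wild type changes was not tested.

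**Figure D2:**
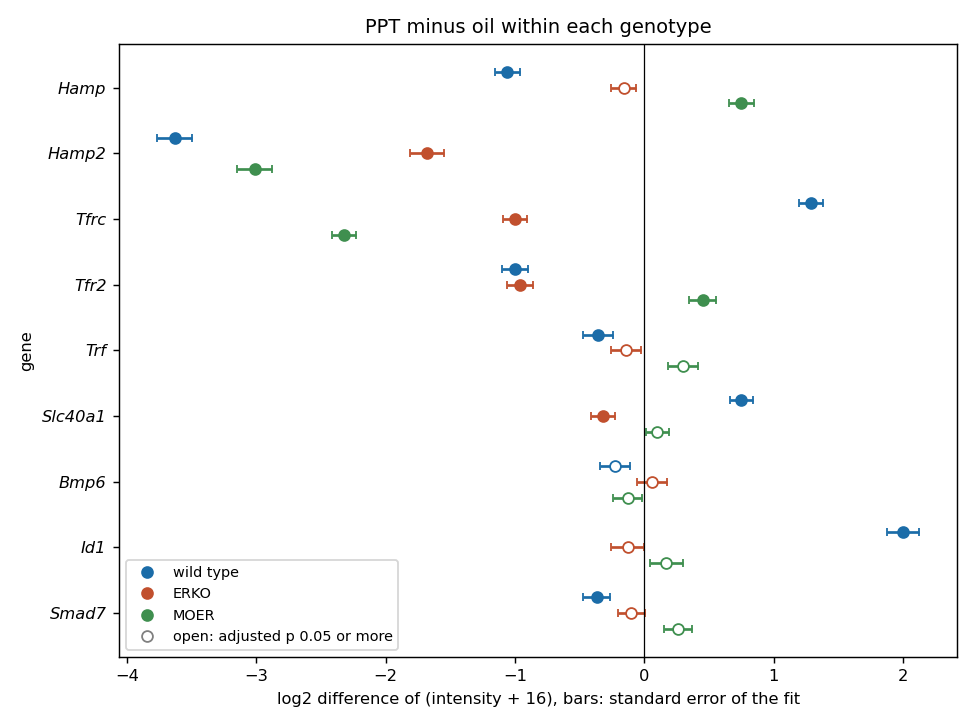
Log2 change of (intensity + 16) with PPT for the 9 genes in each genotype, with the standard error of the fit as bars; filled points have an adjusted p under 0.05. Hamp2 lies at -3.63, -1.68 and -3.01 in wild type, ERKO and MOER, while Tfrc lies at 1.29, -1.0 and -2.32.

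Tfrc, which takes up transferrin-bound iron, changed in every genotype but not in 1 direction. In wild type it rose from 540 and 555 to 1385 and 1335 (log2 change 1.29 ± 0.094, adjusted p = 2.24e-06). In ERKO it fell from 1289 and 1197 to 612 and 613 (-1.0 ± 0.094, adjusted p = 6.71e-05), and in MOER 4.99-fold from 1756 and 1743 to 313 and 364 (-2.32 ± 0.094, adjusted p = 1.42e-07). The 6 groups did not overlap. The MOER oil values come from the arrays with pancreatic transcripts. The order was MOER oil, wild type PPT, ERKO oil, ERKO PPT, wild type oil and MOER PPT. TFR1 is also abundant on dividing cells and red cell precursors. All 7 tested markers of dividing cells rose in wild type, where the summed intensity of the 8 measured was 1550 to 1610 under oil and 3290 to 3387 with PPT. In ERKO 2 of the 7 rose, with sums of 1575 to 1833 under oil and 1912 to 2016 with PPT. Of all probe sets 14.8% rose in wild type, 9.48% in ERKO and 2.35% in MOER. In MOER the sums were 1531 to 1577 and 1711 to 1939, with limma calling 0 of the 7, 3 higher and 0 lower at an unadjusted p under 0.05, and 0 in the Cyber-T-style test. Pcna, a replication clamp, made up most of that MOER difference (means of 1040 and 1239). Alas2, the erythroid haem synthesis enzyme, averaged 594 and 474 in wild type, 890 and 993 in ERKO, and 819 and 773 in MOER (oil, then PPT). Of the 13 red cell markers listed 7 were measured, 3 of them below the 40th percentile on every array. The part of either cell type in the Tfrc result was not tested.

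Tfr2, the hepatocyte iron sensor, fell in wild type and ERKO and rose slightly in MOER. It went from 927 and 913 to 467 and 439 in wild type (log2 change -1.0 ± 0.102, adjusted p = 2.71e-05) and from 943 and 783 to 440 and 429 in ERKO (-0.96 ± 0.102, adjusted p = 1.60e-04). In MOER it went from 746 and 714 to 1036 and 968 (0.45 ± 0.102, adjusted p = 0.0321), a call that leaving out any 1 array other than the ERKO oil ones removed.

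Trf, the plasma iron carrier, read 13076 and 13234 against 10749 and 9792 in wild type, 12683 and 9803 against 9966 and 10221 in ERKO, and 12471 and 12483 against 15345 and 15409 in MOER. The ERKO groups overlapped and the other pairs did not. The fall in wild type was -0.36 ± 0.116 (adjusted p = 0.0379) and lost its call without any 1 array other than the ERKO oil ones. The ERKO and MOER differences of -0.14 (adjusted p = 0.438) and 0.30 (adjusted p = 0.236) did not pass. The ERKO difference turned on the oil arrays, at 0.04 (adjusted p = 0.745) without the first and -0.33 (adjusted p = 0.0224) without the second. The MOER difference passed at the same 0.30 without either ERKO oil array (adjusted p = 0.0287).

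Slc40a1, which encodes ferroportin, rose in wild type from 3354 and 3180 to 5547 and 5495 (log2 change 0.75 ± 0.090, adjusted p = 8.61e-05). In ERKO it fell from 3430 and 3010 to 2581 and 2550 (-0.32 ± 0.090, adjusted p = 0.0328), a call lost in 9 of 12 fits that left out 1 array. The change was -0.23 (adjusted p = 0.061) without the first ERKO oil array and -0.42 (adjusted p = 0.00687) without the second. In MOER it read 2795 and 2849 against 2968 and 3086 (0.10, adjusted p = 0.716). Ferroportin is abundant in Kupffer cells. Of 11 tested macrophage and Kupffer cell markers, 4 rose and 1 fell in wild type, 0 rose and 6 fell in ERKO, and 3 rose and 1 fell in MOER. Their summed intensity was 9639 to 9881 under oil and 11451 to 11495 with PPT in wild type, 9614 to 11109 and 8552 to 8686 in ERKO, and 11184 to 11273 and 12597 to 12701 in MOER. Cd5l (means of 1797 and 2727) and Marco (135 and 978) made up most of the wild type difference, while Clec4f averaged lower with PPT (1240 and 1002). Of all probe sets 14.8% rose and 16.2% fell in wild type, 9.48% and 8.46% in ERKO, and 2.35% and 2.31% in MOER. The part of macrophages and Kupffer cells in the Slc40a1 result was not tested.

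Of 29 other genes of iron uptake, storage, recycling and export, 4 rose and 12 fell in wild type, 1 rose and 7 fell in ERKO, and 6 rose and 1 fell in MOER. Of all probe sets 14.8% rose and 16.2% fell in wild type, 9.48% and 8.46% in ERKO, and 2.35% and 2.31% in MOER. The list medians were -0.11, -0.11 and 0.03. Lcn2, a siderophore-binding acute phase protein, rose in all 3 genotypes (log2 changes 2.37 ± 0.089, 0.94 ± 0.089 and 2.08 ± 0.089). Steap4, a metalloreductase, fell from 1123 to 589 in wild type (-0.91 ± 0.082) and rose from 1331 to 3345 in MOER (1.32 ± 0.082). Aco1, which encodes the iron-regulatory protein IRP1, fell in wild type from 1506 to 809.9 (-0.88 ± 0.088) and in ERKO from 1513 to 949.5 (-0.66 ± 0.088). Slc39a14, an importer of iron not bound to transferrin, fell in wild type from 602 to 378 (-0.65 ± 0.099, adjusted p = 4.98e-04) and in ERKO from 623 to 407 (-0.59 ± 0.099, adjusted p = 0.00293). In MOER it rose from 523 to 983 (0.89 ± 0.099, adjusted p = 3.22e-04). Cd163, the macrophage receptor for haemoglobin and haptoglobin, fell in MOER from 303 to 107 (-1.38 ± 0.101, adjusted p = 1.44e-05).

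Haem synthesis had more calls in wild type than in ERKO, where Alas1 had the smallest adjusted p. Alas1, the rate-limiting enzyme of haem synthesis in liver, fell in ERKO from 2443 to 676 (log2 change -1.83 ± 0.088, adjusted p = 2.30e-07). Under oil it averaged 1191 in wild type and 1171 in MOER. Of the 10 tested genes of the list 0 rose and 3 fell in ERKO, against 9.48% and 8.46% of all probe sets. The list median was -0.20 in ERKO. In wild type 1 rose and 7 fell, with a list median of -0.42. Of all probe sets 14.8% rose and 16.2% fell there, and 2.35% and 2.31% in MOER. Cpox, which converts coproporphyrinogen, went from 724 to 457 (-0.64 ± 0.090), Pgrmc1, a haem-binding protein, from 5906 to 3844 (-0.62 ± 0.095), and Uros, uroporphyrinogen synthase, from 349 to 625 (0.81 ± 0.142). In MOER limma called 0 of the 10, with 1 higher and 1 lower at an unadjusted p under 0.05 and 0 in the Cyber-T-style test.

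Inflammation is the other main drive on Hamp, so genes of the IL-6 and STAT3 response were counted beside it. In wild type, where Hamp fell, 9 of the 22 tested genes rose and 5 fell. In ERKO 6 rose and 2 fell, and in MOER, where Hamp rose, 11 rose and 1 fell. Of all probe sets 14.8% rose and 16.2% fell in wild type, 9.48% and 8.46% in ERKO, and 2.35% and 2.31% in MOER. The list medians were 0.24, 0.21 and 0.41. The serum amyloid gene Saa1 rose in wild type from 1748 to 6792 (log2 change 1.95 ± 0.130), and Lifr, a receptor of the IL-6 family, from 1784 to 11434 (2.67 ± 0.083). Under oil Saa1 already averaged 8177 in ERKO and 5509 in MOER. In ERKO Saa3 rose from 742.5 to 11227 (3.89 ± 0.092, adjusted p = 1.11e-09). In MOER Serpina3n rose from 2587 to 8242 (1.67 ± 0.083) and Itih4 from 4874 to 9742 (1.00 ± 0.082). These counts describe the list beside Hamp, and a link between them was not tested.

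**Figure D3:**
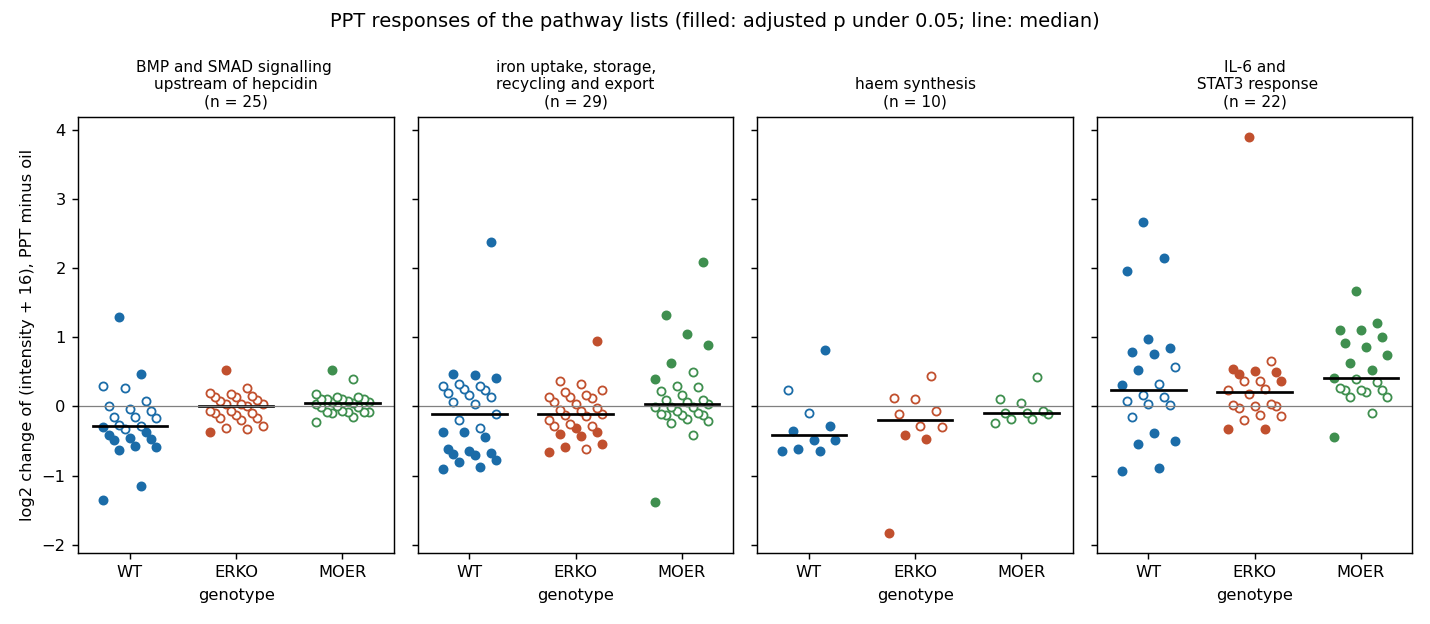
Log2 change of (intensity + 16) with PPT of each tested gene in 4 lists, by genotype; filled points have an adjusted p under 0.05 and black lines are medians. The BMP list has a median of -0.28 in wild type against 0.01 and 0.05 in ERKO and MOER, and the IL-6 list has its highest median, 0.41, in MOER.

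The responses themselves were then compared between genotypes. Wild type minus MOER differed for 8 of the 9 genes, against 21.6% of all probe sets, wild type minus ERKO for 5 (22.3%) and MOER minus ERKO for 4 (11.5%). Each pair of these differences shares the arrays of 1 genotype. The response of Tfrc differed most, by 3.61 ± 0.133 between wild type and MOER (adjusted p = 4.76e-08) and by 2.29 ± 0.133 between wild type and ERKO (adjusted p = 8.53e-07). For Hamp, wild type minus MOER was -1.81 ± 0.136 (adjusted p = 6.86e-06), wild type minus ERKO -0.90 ± 0.136 and MOER minus ERKO 0.91 ± 0.136. The fall of Hamp2 was smaller in ERKO than in the other genotypes, with wild type minus ERKO at -1.95 ± 0.191 and MOER minus ERKO at -1.33 ± 0.191. For Hamp2 the wild type and MOER responses differed by -0.62 ± 0.191 (adjusted p = 0.0406), a call lost in 8 of 12 fits without 1 array. The rise of Id1 exceeded the ERKO response by 2.13 ± 0.176 and the MOER response by 1.83 ± 0.176, whereas MOER minus ERKO was 0.30 (adjusted p = 0.325). The fall of Tfr2 was not shown to differ between wild type and ERKO (-0.04, 95% interval -0.36 to 0.28, adjusted p = 0.892), and both differed from MOER, by -1.45 ± 0.144 and, for MOER minus ERKO, 1.41 ± 0.144. Bmp6 was the 1 gene called in none of the 3 differences.

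Without PPT the genotypes already differed in some iron genes. ERKO differed from wild type under oil in 4 of the 9 genes (5.01% of all probe sets), MOER from wild type in 4 (5.66%) and MOER from ERKO in 3 (2.05%). In the Cyber-T-style test 1 gene passed in each (0.549%, 0.947% and 0.403% of all probe sets). Tfrc was higher than in wild type in both altered genotypes, by 1.16 ± 0.094 in ERKO (adjusted p = 7.61e-05) and 1.65 ± 0.094 in MOER (adjusted p = 2.68e-06). Hamp2 was lower in ERKO, by -0.97 ± 0.135 (adjusted p = 0.00271), and MOER exceeded ERKO by 1.28 ± 0.135 (adjusted p = 6.01e-04). Hamp was lower in MOER than in wild type (-0.44 ± 0.096, adjusted p = 0.0259) and than in ERKO (-0.58 ± 0.096, adjusted p = 0.0121). ERKO minus wild type was 0.14 for Hamp (adjusted p = 0.393). The MOER differences here and in the next paragraph rest on the oil arrays with pancreatic transcripts, whose part was not tested.

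Id1 was lower than in wild type in ERKO (-0.58 ± 0.125, adjusted p = 0.026) and MOER (-0.56 ± 0.125, adjusted p = 0.0264), and Smad7 likewise (-0.43 ± 0.105, adjusted p = 0.0444, and -0.44 ± 0.105, adjusted p = 0.0388). The differences called with adjusted p above 0.01 were fragile. Leaving out 1 array removed the call of Hamp in 6 of 12 fits against wild type and in 2 against ERKO, of Id1 in 5 (ERKO) and 4 (MOER), of Smad7 in 11 and 8, and of the Tfrc difference between MOER and ERKO (0.49, adjusted p = 0.0267) in 8. Bmp6, Tfr2, Trf and Slc40a1 were called in none of the 3 oil comparisons, with log2 differences between -0.33 and 0.16. Among the BMP genes 0 were higher and 6 lower in ERKO than in wild type, with Tmprss6 (-0.55), Hjv, the gene of the BMP co-receptor haemojuvelin (-0.56), and Id2 (-0.52) having the smallest p. The list median was -0.16 there, against -0.05 for all tested genes, and -0.25 in MOER minus wild type, against -0.03. In MOER minus wild type limma called 0 of the BMP genes higher and 1 lower. At an unadjusted p under 0.05, a threshold at which all probe sets were not counted, 1 was higher and 12 lower. In the Cyber-T-style test 0 passed. Of the 12 sinusoidal endothelial markers, 0 were higher and 4 lower in ERKO than in wild type (median -0.31), and their part in these differences was not tested. Alas1 was higher in ERKO by 1.03 ± 0.088 (adjusted p = 1.14e-04). Lcn2 was higher than in wild type in ERKO (2.63 ± 0.089) and MOER (1.46 ± 0.089). Of the 22 tested IL-6 and STAT3 genes, 6 were higher and 0 lower than in wild type in ERKO, and 4 higher and 1 lower in MOER. Among them Saa1 was higher by 2.20 ± 0.130 in ERKO and 1.65 ± 0.130 in MOER. Of all probe sets 5.01% were called in ERKO minus wild type and 5.66% in MOER minus wild type, in either direction.

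**Figure D4:**
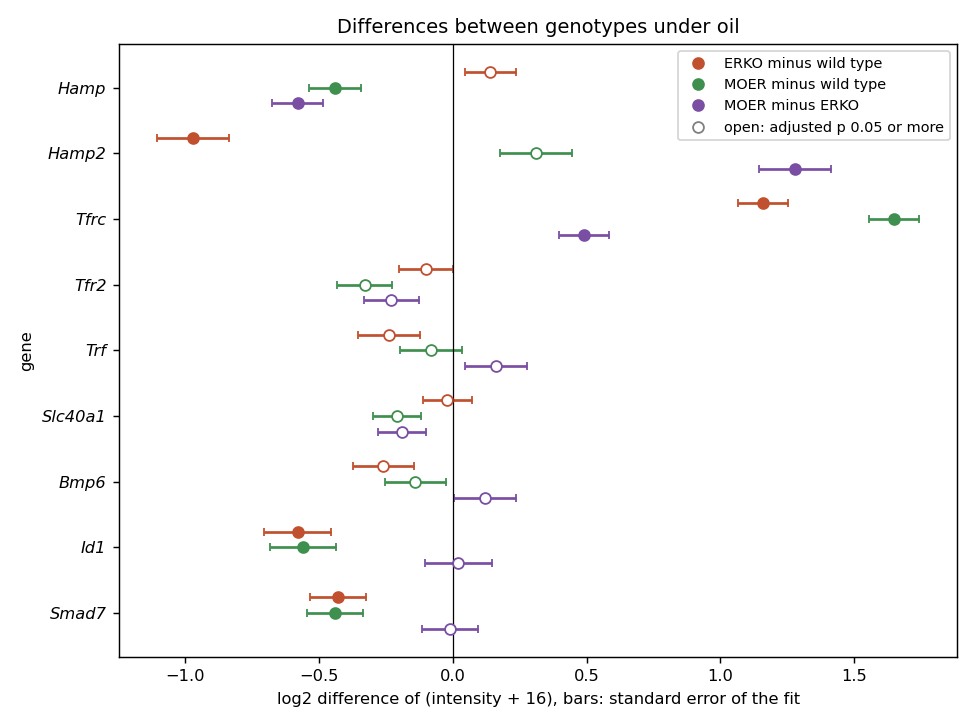
Log2 difference of (intensity + 16) between genotypes under oil for the 9 genes, with the standard error of the fit as bars; filled points have an adjusted p under 0.05. Tfrc lies at 1.16 (ERKO minus wild type) and 1.65 (MOER minus wild type), and Bmp6, Tfr2, Trf and Slc40a1 have open points throughout.

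The 13978 other tested genes were searched for those whose log2 intensity followed Hamp or Tfrc most closely over the 12 arrays, as a description, since arrays of a group are alike and a gene can share depth and RNA quality with any other. For Hamp the 5 highest values of Pearson's r were those of Enpp3 (0.976), Ifit1 (0.975), Tbc1d32 (0.971), Gzf1 (0.964) and Klhl24 (0.959). Enpp3, an ectonucleotidase, averaged 707 and 199 in wild type, 916.5 and 810.5 in ERKO and 562.5 and 1072 in MOER (oil, then PPT). For Tfrc they were Ugdh (0.936), Hmgcs1 (0.895), Fbxo33 (0.886), Ranbp2 (0.876) and Gmps (0.866). Ugdh makes UDP-glucuronate and averaged 2750 and 3314 in wild type, 3763 and 2905 in ERKO and 3689 and 2590 in MOER.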

How the data were processed

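Liver RNA was hybridised to Affymetrix Mouse Gene 1.0 ST arrays, 12 in all. The deposited table gives linear hybridisation intensity per probe set. Summarisation and normalisation by the authors are not stated in the labels. Array medians of 77.5 to 85.26 were close, so values were not normalised again. Per the labels the authors tested with Cyber-T. The platform annotation gave 1 symbol for 21780 of 28815 probe sets, and each gene was read from the one with the highest mean.

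Intensities became log2(intensity + 16). A probe set had to exceed its array's 40th percentile on at least 2 arrays, and the 19119 that did were tested in 1 limma fit of 6 group means (limma 3.58.1, R 4.3.3), two-sided, with Benjamini-Hochberg adjustment over all of them in each of 9 contrasts. The procedure was tested on simulated data. Errors of intensities are SDs of 2 arrays. Promoters were aligned with Biopython 1.88. From the lists, at most the 3 called genes of smallest adjusted p were picked per comparison. Slc39a14, picked in ERKO, is also given in wild type and MOER, where it was not among those 3. Alternatives were other added constants, filters, scalings, variance models, a replicate block, the methods' threshold and leaving out arrays. Of 92 list symbols 89 were found. The members and lists were chosen with earlier results of these data known.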

Additional observations from a re-analysis of the deposited data

Results flagged for a closer look

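These results stand here because the response to PPT differed between genotypes by a test of the difference itself, in limma with Benjamini-Hochberg adjustment, and each value is a difference of log2 changes. Wild type minus ERKO was called for Hamp (-0.90), Hamp2 (-1.95), Tfrc (2.29), Slc40a1 (1.08) and Id1 (2.13). MOER minus ERKO was called for Hamp (0.91), Hamp2 (-1.33), Tfrc (-1.32) and Tfr2 (1.41). Wild type minus MOER was called for Hamp (-1.81), Hamp2 (-0.62), Tfrc (3.61), Tfr2 (-1.45), Trf (-0.66), Slc40a1 (0.65), Id1 (1.83) and Smad7 (-0.62). For Hamp, Tfr2 and Tfrc the wild type and MOER responses had opposite signs. The call of the Tfr2 rise in MOER was lost in 10 of 12 fits without 1 array. The wild type and MOER comparisons include the MOER oil arrays with pancreatic transcripts, whose part was not tested.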

How the results depend on the processing

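Of 81 changes (9 genes in 9 comparisons) 44 were called, and 29 of these kept their call under every alternative run except the methods' threshold, which asks for a 2-fold change. None of the 44 changed sign. Of the 37 not called, 9 changed sign under 1 or more of the 24 alternatives. Some of the 37 gained a call: 5 with quantile normalization, among them the fall of Hamp in ERKO, 3 with median centring and 3 with limma-trend. Leaving out 1 ERKO oil array also brought calls, of Trf, Tfr2 and Slc40a1 changes. At the methods' threshold 4 of the 9 genes passed in wild type, 2 in ERKO and 2 in MOER, and 1 in each oil comparison. For ERKO minus wild type under oil, 4 calls became 2 without a filter or with median centring and 1 with the compared arrays alone. For MOER minus wild type, 4 became 1 without a filter and 2 with the compared arrays alone, and for MOER minus ERKO 3 became 1 with those arrays alone. With 1 array left out, the calls ranged from 5 to 8 for wild type minus MOER, 2 to 5 for ERKO minus wild type, 1 to 5 for MOER minus wild type and 1 to 4 for MOER minus ERKO under oil. The lowest count for wild type minus MOER came without wild type PPT replicate 2.

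Deviations of same-numbered arrays correlated at -0.15 to 0.38 over 15 pairs of groups, and 5 exceeded 0.1, so the numbers were not taken to pair the arrays. With the replicate block 8 genes were called in wild type, 4 in ERKO and 4 in MOER. Without both MOER oil arrays, chosen after seeing the data, Trf in wild type (adjusted p = 0.0546), Slc40a1 in ERKO (0.0537) and Smad7 in ERKO minus wild type (0.0648) lost their calls. None of the 9 genes lay below the 40th percentile on both arrays of a group. The cause of these shifts was not tested.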
